A study of Homo sapiens with 4 samples.

Results

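The 53 genes described here encode the proteins that mark, license and fire DNA replication origins and that copy DNA at the fork. They were taken as a list of names, by the gene name printed in the scanner files, and were 53 of 43310 gene names on the array. The list was chosen with earlier results of these data known. Each gene was read from its gene probe with the highest mean log2 signal over the 4 arrays, and all 53 probes were well above background on every array, so no gene was lost to a filter on dim probes. The samples were 2 human cancer cell lines, HCT116 from a colorectal cancer and A549 from a lung cancer, transfected with the microRNA miR-891b or with the negative control NC1 by means of the lipid reagent Dharmafect1. Time after transfection and dose were not given in the sources used here, and neither was whether cells were synchronised. Each line was measured with NC1 and with miR-891b, which makes 4 groups, on 1 array each (100 ng of total RNA, Cy3, 1-colour Agilent design). With 1 array per group a change within a line has no replicate check and no p-value, and 4 arrays in all leave the precision of each change unknown beyond its spots. Both arrays of a line shared a slide, so line and slide cannot be told apart, but the effect of miR-891b was read inside a single slide.

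Marker genes separated the lines on the control arrays. Of 6 A549 markers, the 5 measured on both NC1 arrays were higher in A549, by log2 differences from 2.36 (NQO1) to 12.17 (AKR1B10), and ALDH1A1 was well above background in A549 only. On the same arrays all 4 HCT116 markers were higher in HCT116, with A549 minus HCT116 differences from -3.13 (CLDN3) to -6.75 (CLDN7). The A549 marker AKR1B10 was at -2.29 on HCT116 NC1 and 2.18 on HCT116 miR-891b, whereas ALDH1A1 and AKR1C1 were not well above background on the latter array. Markers also moved with miR-891b in A549. All 6 A549 markers had negative changes, from -0.19 (AKR1B10) to -1.64 (KRT81), and their summed log2 level went from 11.6 to 11.1. The HCT116 markers EPCAM (0.74) and CLDN3 (1.03) had positive changes in A549 and CDX2 (-0.36) and CLDN7 (-0.96) negative ones, and their summed log2 level there went from 2.93 to 3.76, against 7.49 on HCT116 NC1. The part of these moves in the results on replication genes was not tested. Of 9 markers of fibroblasts, leukocytes and endothelial cells, 5 were well above background on each array, and COL1A2, COL3A1, CD3E and PECAM1 were not on any array. The 4 arrays had 44.7% to 50.3% of their 58201 gene probes well above background and no saturated gene spot. The HCT116 array with miR-891b had 10.5% of its gene spots in areas of stray signal, where spots that are dim on the other arrays were bright, against at most 2.20% on the others, and the spots of 7 of the 53 genes lay there (MCM6, POLA2, POLD1, POLE3, RFC2, RFC5 and TIMELESS). Probes printed repeatedly gave a median SD of the log2 change of 0.061 in HCT116 (276 probes) and 0.071 in A549 (287 probes), which covers the spots only and not cultures or labelling.

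Replication is prepared in G1, when the origin recognition complex, with CDC6 and CDT1, loads the ring-shaped MCM2 to MCM7 helicase onto DNA in an inactive form. At the start of S phase the kinases, CDC7 with DBF4 among them, and CDC45 and the GINS complex turn that ring into the active helicase, behind which polymerase alpha-primase lays primers, polymerases delta and epsilon extend them, and PCNA, loaded by RFC, holds the polymerases on DNA. Most of these genes are transcribed in late G1 and S phase under E2F transcription factors, so their RNA level follows the share of a culture that is cycling. In bulk RNA a smaller share of cells in that phase and less RNA per cell cannot be told apart.

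The treatment itself is shown first. The mature miR-891b sequence, from RefSeq's table on GRCh38.p14 (chrX:146001100-146001121, minus strand), is printed with its seed, bases 2 to 8, in capitals, because the seed is the part that pairs with target transcripts.
miR-891b: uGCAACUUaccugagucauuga
Its 7-base match in DNA letters is AAGTTGC. Among the 69 probes of the 53 genes, 1 held this match, the DSCC1 probe, and DSCC1 was also the gene with the most negative A549 change of the list in the main setting. The match was in 81 of 21336 main probes of genes measured in A549 (0.38%). A probe covers 60 bases of a transcript, so the count says nothing about sites elsewhere in the transcripts.

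The promoters are shown because the genes moved together in A549 and E2F sites are what these promoters are known for. Of the 53 genes, 46 had an entry in RefSeq's promoter table (GRCh38.p14, from 250 bases before the gene's start to 50 after). An E2F site was searched as TTTGGCGC, TTTCCCGC, TTTGCCGC or TTTCGCGC on both strands, where forward and reverse matches may overlap. It was found in 21 of the 46 promoters (45.7%), against 908 of all 27305 promoters of the same length (3.33%) and 547 of 11119 promoters of genes measured in A549 (4.92%). The CCAAT box (CCAAT, both strands) was found in 26 of the 46 (56.5%) and in 35.7% of all promoters, and the CHR element of mitotic genes (TTTGAA, both strands) in 1 of the 46 (2.17%) and in 15.4% of all. Among promoters of genes measured in A549 the shares were 36.1% for the CCAAT box and 10.2% for the CHR element. A match describes the letters of the window and does not show that a factor binds there. The windows below end at the base before the gene's start, are read 5′ to 3′ on the gene's strand, and have the E2F matches in capitals. The first 8 were picked after the values were seen, as genes of licensing, the MCM ring and later steps whose matches lie before the start. RFC1, which has no match and a small change, is given for contrast. RFC1 is not typical, as 17 of the 25 genes without a match were at least 2-fold lower in A549. MCM6 carries a pair of blocks in which a forward and a reverse match overlap, and the match at the end of the MCM3 window runs past the gene's start and is cut there.
MCM6 (chr2:135876444-135876643, minus strand, 200 bases): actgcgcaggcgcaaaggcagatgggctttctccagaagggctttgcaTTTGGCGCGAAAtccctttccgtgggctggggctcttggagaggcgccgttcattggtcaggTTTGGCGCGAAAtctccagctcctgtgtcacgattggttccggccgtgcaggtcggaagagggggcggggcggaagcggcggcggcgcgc
MCM3 (chr6:52284743-52284942, minus strand, 200 bases): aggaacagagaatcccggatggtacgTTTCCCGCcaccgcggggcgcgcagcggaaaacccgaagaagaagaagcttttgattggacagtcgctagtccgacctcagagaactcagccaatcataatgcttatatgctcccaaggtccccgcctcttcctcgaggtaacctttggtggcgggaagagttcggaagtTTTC
MCM7 (chr7:100101398-100101597, minus strand, 200 bases): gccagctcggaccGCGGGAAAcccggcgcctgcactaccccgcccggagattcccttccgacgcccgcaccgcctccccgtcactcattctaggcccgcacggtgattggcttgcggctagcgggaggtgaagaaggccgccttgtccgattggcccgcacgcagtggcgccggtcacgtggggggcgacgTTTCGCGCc
CDT1 (chr16:88803689-88803788, plus strand, 100 bases): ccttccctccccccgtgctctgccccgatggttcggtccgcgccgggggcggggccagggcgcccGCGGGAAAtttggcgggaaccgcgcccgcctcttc
GINS2 (chr16:85688955-85689054, minus strand, 100 bases): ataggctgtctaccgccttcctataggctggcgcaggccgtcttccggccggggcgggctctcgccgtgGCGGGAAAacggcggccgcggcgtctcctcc
UHRF1 (chr19:4909401-4909500, plus strand, 100 bases): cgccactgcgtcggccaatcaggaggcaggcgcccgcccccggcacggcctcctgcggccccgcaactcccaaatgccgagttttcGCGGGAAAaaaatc
PCNA (chr20:5126623-5126722, minus strand, 100 bases): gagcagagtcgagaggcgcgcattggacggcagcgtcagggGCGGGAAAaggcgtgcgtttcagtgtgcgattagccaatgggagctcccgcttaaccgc
RFC3 (chr13:33818049-33818148, plus strand, 100 bases): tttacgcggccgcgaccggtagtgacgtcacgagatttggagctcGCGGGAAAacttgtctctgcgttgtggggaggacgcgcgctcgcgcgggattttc
RFC1 (chr4:39366363-39366462, minus strand, 100 bases): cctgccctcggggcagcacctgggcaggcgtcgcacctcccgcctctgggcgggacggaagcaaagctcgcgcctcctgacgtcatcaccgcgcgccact

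In A549 the replication genes were lower with miR-891b almost throughout. Of 53 genes, 41 (77.4%) were at least 2-fold lower and 0 at least 2-fold higher, where 5.57% of all 21336 genes measured in A549 were at least 2-fold lower and 4.01% at least 2-fold higher. The median log2 change, miR-891b minus NC1, was -1.25 over the 53 genes and -0.059 over all measured genes. Changes ran from -3.34 for DSCC1 to 0.058 for ORC3, which was the only gene of the 53 with a positive A549 change. Among the 500 most lowered genes of the A549 arrays, 22 were replication genes (41.5% of the 53 genes, against 2.34% of all measured genes). Just past the 2-fold line lay TIMELESS (-1.07), ORC5 (-1.08) and ORC6 (-1.09), and just short of it GMNN (-0.97) and TIPIN (-0.84). Quantile normalization alone left 40 of 53 genes at least 2-fold lower, with 4.9% of all genes. Background correction by normexp with quantile normalization left 24 of 53, with 2.01% of all genes. That setting adds an offset of 50 to each signal, where the processed signal at the arrays' 75th percentile was 54.9 to 74.8. Such an added constant makes the log2 changes of dim probes smaller. Under that setting MCM2 (-1.96) had the most negative A549 change.

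**Figure D1:**
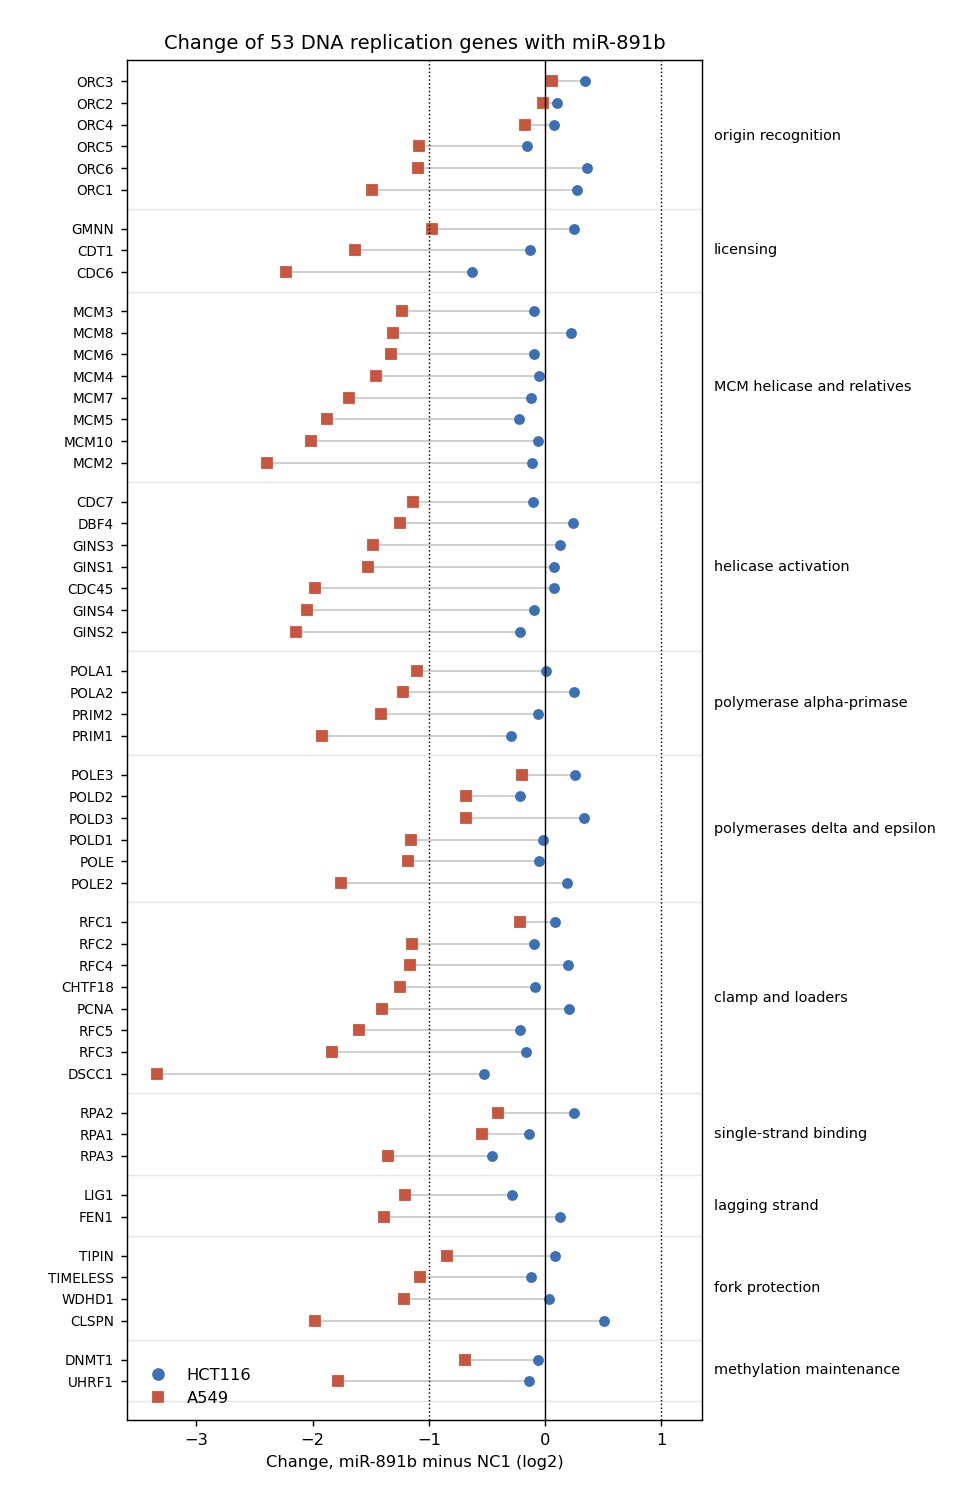
Log2 change with miR-891b (x axis) of each of the 53 genes in HCT116 (circles) and A549 (squares), grouped by role, with 1 array per group and dotted lines at a 2-fold change. In A549 41 genes lie left of the lower dotted line, whereas all HCT116 points lie between -0.63 and 0.50.

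**Figure D2:**
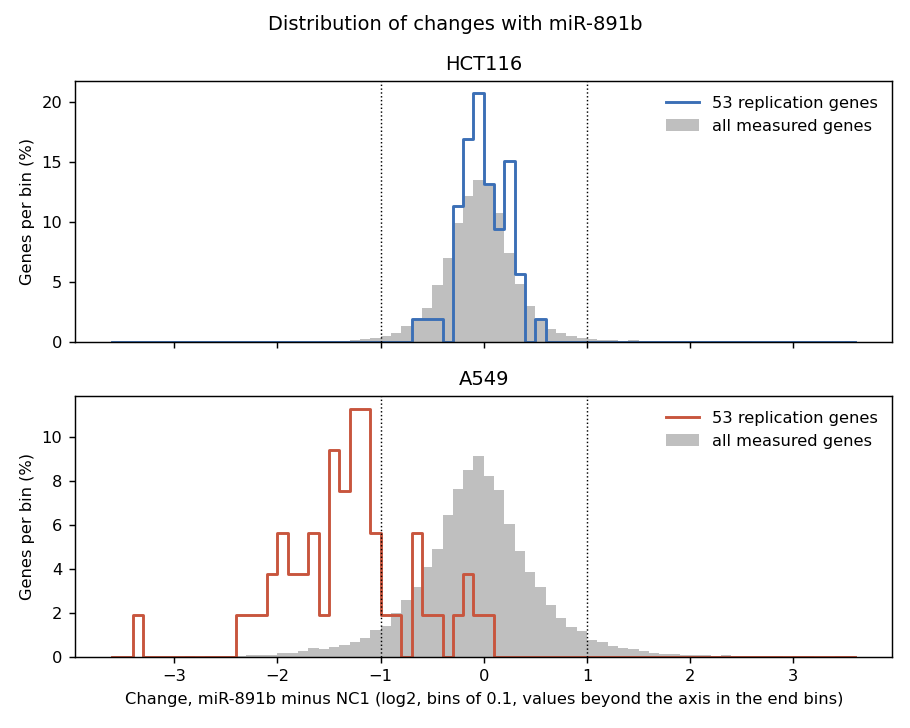
Share of genes per 0.1-wide bin of log2 change for all measured genes (grey bars) and for the 53 replication genes (line), in HCT116 (upper panel) and A549 (lower panel). The replication genes have a median of -0.051 in HCT116, close to that of all genes at -0.041, and of -1.25 in A549, where all genes have a median of -0.059.

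The origin recognition complex, the 6-subunit platform that marks origins, was split. ORC1, the subunit whose level cycles, had log2 levels relative to the array's 75th percentile of 0.32 (NC1) and 0.60 (miR-891b) in HCT116 and of -0.40 (NC1) and -1.90 (miR-891b) in A549. It was lowest on A549 miR-891b and highest on HCT116 miR-891b, with an A549 change of -1.49. With the arrays in the order just used, here and in the following paragraphs, ORC6 had levels of 1.90, 2.26, 1.92 and 0.83, and its A549 change over 10 repeated spots was -1.09 ± 0.096 (SD over spots). ORC5 had 3.47, 3.31, 3.45 and 2.36, a change of -1.08. ORC1, ORC5 and ORC6 were thus the 3 subunits past 2-fold. With normexp and quantile normalization none of the 6 was, as ORC1 then had -0.49, ORC5 -0.90 and ORC6 -0.79. ORC2 (-0.020), ORC3 (0.058) and ORC4 (-0.17) had A549 changes of at most 1.13-fold, and the signs for ORC2 and ORC3 turned under other settings. A further probe of ORC2, ORC3 and ORC4 each gave -0.23, -0.24 and -0.37.

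The loading factors followed. CDC6, the ATPase that completes the loader, had levels of -0.69 (NC1) and -1.32 (miR-891b) in HCT116 and of -0.98 (NC1) and -3.21 (miR-891b) in A549 (probe at chr17:38459354-38459413, hg19). It was lower with miR-891b in both lines, by 4.70-fold in A549 and 1.55-fold in HCT116, the most negative HCT116 change of the list. With normexp and quantile normalization these became 1.47-fold and 1.20-fold, so the A549 change no longer passed 2-fold. CDT1, which carries the MCM ring to the loader, had 5.35, 5.22, 3.10 and 1.47, so that both A549 arrays lay below both HCT116 arrays. Its inhibitor geminin, GMNN, had 4.65, 4.90, 4.46 and 3.49, an A549 change of -0.97 that missed 2-fold.

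All 6 subunits of the MCM ring were at least 2-fold lower in A549, with changes from -1.23 (MCM3) to -2.40 (MCM2). MCM2 had levels of 4.27 (NC1) and 4.16 (miR-891b) in HCT116 and of 3.37 (NC1) and 0.98 (miR-891b) in A549 (probe at chr3:127340805-127340864, hg19), a 5.27-fold decrease in A549. MCM7 had 8.04, 7.92, 7.35 and 5.66. MCM5 had 4.55, 4.32, 3.67 and 1.79. In these 3 genes the HCT116 arrays lay within 0.23 of each other and A549 miR-891b stood apart as the lowest array. MCM3 had 6.84, 6.74, 5.73 and 4.50, MCM4 changed by -1.46 and MCM6 by -1.32. Subunits of the same ring thus changed by unequal amounts in A549, and no replicate shows how much of that span is error. MCM10, which helps to start the helicase, had 0.82, 0.75, 0.89 and -1.12, so its 3 other arrays lay together and only A549 miR-891b was low. Its 4.05-fold decrease in A549 became 1.95-fold with normexp and quantile normalization. MCM8, a relative that acts in recombination and is no part of the ring, had 1.83, 2.05, 3.32 and 2.01, and was back at the HCT116 level on A549 miR-891b.

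Helicase activation genes were at least 2-fold lower in A549 in 7 of 7 cases, and in 5 of 7 with normexp and quantile normalization, where CDC7 (-0.81) and DBF4 (-0.90) fell short. GINS2 had levels of 4.39 (NC1) and 4.17 (miR-891b) in HCT116 and of 3.96 (NC1) and 1.82 (miR-891b) in A549 (probe at chr16:85711654-85711713, hg19). Its A549 change over 10 spots was -2.14 ± 0.097 (SD over spots), with single spots from -2.24 to -1.95, and its HCT116 change was -0.22 ± 0.17. CDC45 had 4.37, 4.45, 4.25 and 2.27, a 3.94-fold decrease in A549, with the other 3 arrays close together. GINS1, GINS3 and GINS4 started higher in A549 than in HCT116 on the NC1 arrays, by 0.80, 0.47 and 0.46, and ended lower on the miR-891b arrays. Their A549 changes were -1.53, -1.48 and -2.05. The kinase CDC7 had 2.59, 2.48, 1.93 and 0.80, a change of -1.14, and its activating subunit DBF4 changed by -1.25.

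**Figure D3:**
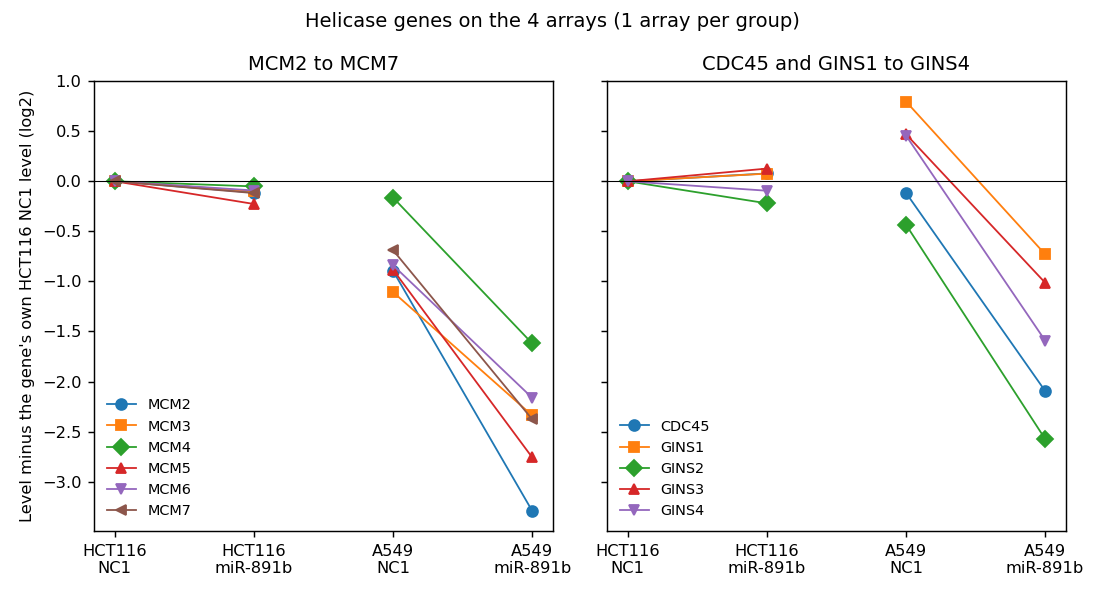
Log2 level of each helicase gene on the 4 arrays minus its own level on HCT116 NC1 (y axis), for MCM2 to MCM7 (left) and for CDC45 and the GINS genes (right), 1 array per group, with lines joining the arrays of a cell line. The MCM genes start lower on A549 NC1 (differences from -0.16 to -1.11), 3 GINS genes start higher, and all 11 drop on A549 miR-891b.

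Subunits of the same polymerase had unequal changes in A549, with the catalytic subunit the more negative in some enzymes and an accessory subunit in others. With normexp and quantile normalization 2 of the 4 polymerase alpha-primase genes and 1 of the 6 delta and epsilon genes passed 2-fold, in place of 4 and 3. PRIM1, the primase catalytic subunit, had levels of 3.31 (NC1) and 3.02 (miR-891b) in HCT116 and of 2.81 (NC1) and 0.89 (miR-891b) in A549, with an A549 change over 10 spots of -1.92 ± 0.10. Its partner PRIM2 had 3.83, 3.77, 2.56 and 1.15, and its 4 probes gave A549 changes between -1.36 and -1.54. Primase RNA was thus lowest on A549 miR-891b for both subunits. POLA1 (-1.11) and POLA2 (-1.23), the catalytic and second subunits of polymerase alpha, also passed 2-fold. With normexp and quantile normalization POLA1 had -0.87 and POLA2 -0.72, so neither passed and their order turned. No replicate shows how much of the differences between subunits is error. POLE2, a subunit of the leading-strand polymerase epsilon, had 1.62, 1.81, 1.58 and -0.18, and its catalytic partner POLE changed by -1.18. With normexp and quantile normalization these A549 changes were -1.17 for POLE2 and -0.39 for POLE. POLE3, a small histone-fold subunit of the same enzyme, had 4.33, 4.58, 4.21 and 4.01, a change of -0.20 whose sign turned under another setting. In polymerase delta, the lagging-strand enzyme, the catalytic POLD1 changed by -1.16, while POLD2 (-0.68) and POLD3 (-0.68) missed 2-fold.

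PCNA, the sliding clamp, had levels of 5.78 (NC1) and 5.98 (miR-891b) in HCT116 and of 6.29 (NC1) and 4.89 (miR-891b) in A549. It was highest on A549 NC1 and lowest on A549 miR-891b, a 2.64-fold decrease that a further probe gave as -1.56 (log2). In the clamp loader, RFC3 (-1.84), RFC5 (-1.60), RFC4 (-1.16) and RFC2 (-1.15), small subunits, passed 2-fold. Of these RFC2 (-0.85) and RFC4 (-0.98) did not pass with normexp and quantile normalization, where RFC3 had -1.07. RFC1, the large subunit, had 3.06, 3.14, 1.74 and 1.52, low on both A549 arrays and changed by only -0.22. CHTF18 takes the place of RFC1 in a loader tied to sister chromatid cohesion, and it changed by -1.24 (1.99-fold with normexp and quantile normalization). DSCC1, an accessory subunit of that loader, had 2.41, 1.89, 0.81 and -2.53, a 10.1-fold decrease in A549 and a change of -0.52 in HCT116. With normexp and quantile normalization the A549 decrease of DSCC1 was 2.67-fold, no longer the largest of the 53 genes, and its HCT116 change of -0.42 was the most negative.

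RPA, the trimer that coats single-stranded DNA, was uneven. RPA3 had levels of 6.37 (NC1) and 5.92 (miR-891b) in HCT116 and of 6.81 (NC1) and 5.46 (miR-891b) in A549, lower with miR-891b in both lines, whereas RPA1 (-0.54) and RPA2 (-0.41) missed 2-fold in A549. RPA1 was the gene whose probes disagreed most, as its other probe gave -1.24. The flap nuclease FEN1 (-1.39) and the ligase LIG1 (-1.20), which finish lagging-strand fragments, both passed 2-fold. CLSPN, the adaptor between the stalled fork and the checkpoint kinase, had 0.51, 1.01, -0.17 and -2.15 (probe at chr1:36204117-36204176, hg19). It combined the highest HCT116 change of the list, 0.50, with an A549 change of -1.98, which was -0.65 with normexp and quantile normalization. None of the 4 fork protection genes passed 2-fold under that setting. The fork protection pair TIMELESS and TIPIN changed by -1.07 and -0.84 in A549, and WDHD1, which ties the helicase to polymerase alpha, by -1.22 ± 0.052 over 10 spots. UHRF1, which reads hemimethylated DNA behind the fork, had 4.55, 4.42, 3.73 and 1.94, a change of -1.78. DNMT1, the methyltransferase it recruits, had 4.30, 4.24, 3.26 and 2.57, a change of -0.69 that missed 2-fold.

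In HCT116 the same genes stayed near their NC1 level. None of the 53 was at least 2-fold lower or higher, where 0.843% of 19105 measured genes were lower and 1.16% higher. These counts of 0 are near the background and are no result about these genes. The median change was -0.051, beside -0.041 over all measured genes. Below 0 were 29 of the 53 genes and 10594 of all 19105. Within 0.1 of 0 lay 18 of the 53 genes and 5072 of all 19105. At 1.5-fold 1 gene was lower (CDC6, -0.63) and 0 were higher, where 5.65% of all genes were lower and 3.91% higher. After CDC6 and DSCC1, the next most negative HCT116 change was that of RPA3 (-0.46). After CLSPN the next most positive were ORC6 with 0.36 ± 0.082 over 10 spots, ORC3 (0.34) and POLD3 (0.33). All 6 MCM ring genes had small negative changes, from -0.051 to -0.23, of which MCM6 and MCM7 turned positive under other settings.

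Set side by side, the change was more negative in A549 than in HCT116 for 53 of 53 genes, where it was for 54.3% of the 18064 genes measured in both lines. The A549 change was lower than the HCT116 change by at least 1 (log2) for 39 of 53 genes (73.6%), against 6.27% of those genes. The A549 minus HCT116 difference of the changes had a median of -1.36 over the 53 genes and -0.052 over all genes, and ran from -2.82 (DSCC1) to -0.12 (ORC2). CLSPN (-2.49), MCM2 (-2.28) and CDC45 (-2.06) followed DSCC1. This difference was not tested, since each line had 1 array per group. The additive model that follows takes the difference as error, so it cannot decide on a change that is present in A549 alone. The additive limma model over both lines, with 1 residual degree of freedom and Benjamini-Hochberg adjustment, called 0 of 53 genes and 0 of 22712 genes (0%) at an adjusted p under 0.05, and the 53 adjusted p-values from limma ran from 0.793 to 0.985. At an unadjusted p under 0.05 there were 2 of the 53 genes and 5.35% of all genes, and with no filter on dim probes 12 of the 53 genes and 8.52% of all genes.

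The control arrays showed where the lines started. On NC1, 39 of 53 genes were lower in A549 than in HCT116, as were 10578 of all 19218 genes measured on both arrays. The median A549 minus HCT116 difference was -0.44 over the 53 genes and -0.10 over all of these genes. At least 2-fold lower were 7 of 53 genes (13.2%), where 16.2% of all genes were lower by that much, and 1 gene (1.89%) was at least 2-fold higher, against 11.1%. The lower count is near the background and is no result about these genes. The 7 were CDT1 (-2.24), CHTF18 (-1.66), DSCC1 (-1.61), RFC1 (-1.32), PRIM2 (-1.27), MCM3 (-1.11) and DNMT1 (-1.03), and the gene that was higher was MCM8, by 2.82-fold. On the miR-891b arrays all 53 genes were lower in A549 than in HCT116, as were 10873 of all 18576 genes measured on both. The median difference there was -1.57 over the 53 genes and -0.19 over all of these genes.

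Other probes of the same genes gave a check on the choice of probe. They were read on the same 4 arrays, so they say nothing of cultures or labelling. Of the 53 genes, 39 had 1 probe, 13 had 2 and PRIM2 had 4. The 15 further probes measured in A549, from 13 genes, had the sign of the main probe there in 14 cases (the exception was ORC3), against 11 of 15 in HCT116, and in A549 they were on the same side of 2-fold in 14 cases (the exception was RPA1). Their median distance from the main probe was 0.15 (log2) in A549 and 0.050 in HCT116, and the largest was 0.70 (RPA1) and 0.37 (PRIM2).

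**Figure D4:**
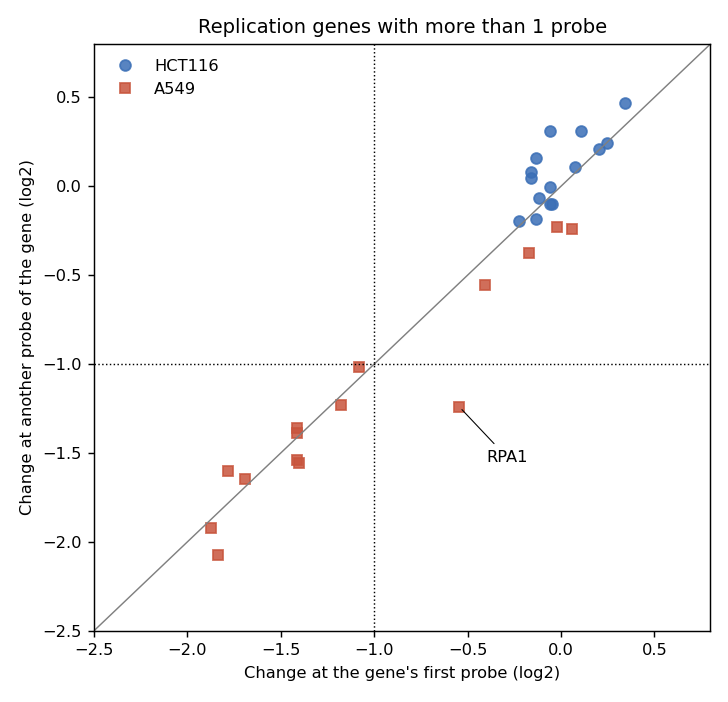
Log2 change at a gene's other probes (y axis) against that at its main probe (x axis) for the 13 genes with further measured probes, in HCT116 (circles) and A549 (squares), with the line of equal change and dotted lines at -1. Points lie near the line of equal change, with RPA1 in A549 (-0.54 and -1.24) farthest from it.

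Promoter matches and the A549 change were then set side by side as a description. Of the 21 genes with an E2F match 19 were at least 2-fold lower in A549, with a median change of -1.48, and of the 25 without a match 17 were, with a median of -1.15. Among all genes of the table measured in A549, 68 of 547 with a match (12.4%) and 557 of 10572 without (5.27%) were at least 2-fold lower. These sets include the replication genes, so the 19 are among the 68 and the 17 among the 557. They are therefore no separate background. With normexp and quantile normalization the counts of replication genes were 14 of 21 and 5 of 25. The 7 genes missing from the promoter table had a median of -1.46. Exceptions ran both ways. ORC3 has a match that begins 12 bases before its start and a change of 0.058, and DNMT1 has a match across its start and a change of -0.69, while MCM10 (-2.02), CDC45 (-1.98) and PRIM1 (-1.92) have no match in this window. Over all genes of the promoter table measured in A549, replication genes included, the median change was -0.19 for 547 genes with a match and -0.041 for 10572 without. In HCT116 the medians of the 53-gene list were -0.059 with and 0.029 without a match.

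**Figure D5:**
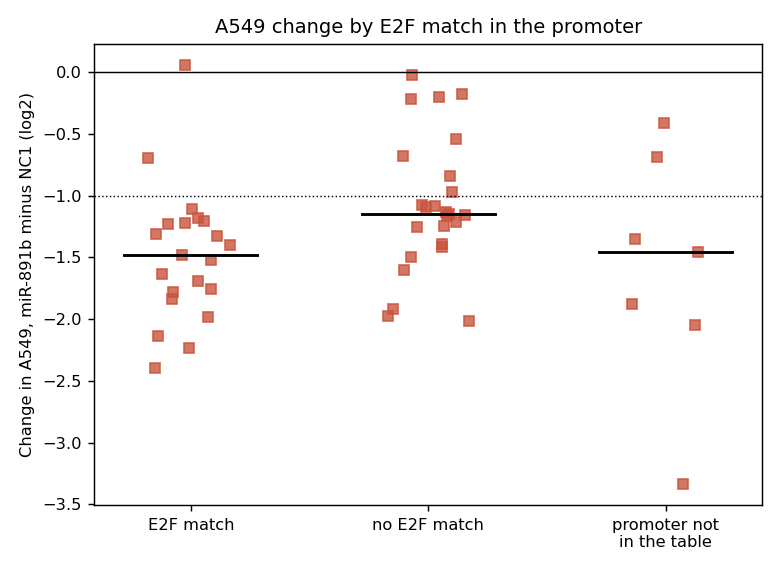
Log2 change in A549 (y axis) of each replication gene whose promoter has an E2F match (21 genes), has none (25 genes) or is not in the table (7 genes). Bars are medians, -1.48, -1.15 and -1.46, the points of the groups overlap, and the dotted line marks a 2-fold decrease.

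A further 36 genes that work beside these at origins and forks gave the wider pathway. This list too was chosen with earlier results of these data known, so its counts are a description and no independent support. In A549, 14 of 36 (38.9%) were at least 2-fold lower and 1 at least 2-fold higher, against 5.57% and 4.01% of all measured genes, with a median of -0.66. With normexp and quantile normalization 10 of the 36 were at least 2-fold lower, with 2.01% of all genes. In HCT116 none of the 36 was past 2-fold, where 0.843% of all measured genes were at least 2-fold lower and 1.16% higher. Their median was 0.069. The 6 with the largest A549 changes were ASF1B (-2.19), a histone chaperone, SSRP1 (-2.04), a subunit of the chaperone FACT, TICRR (-1.94), which brings in the helicase activators, the topoisomerase TOP2A (-1.90), the ubiquitin ligase TRAIP (-1.89) and RNASEH2A (-1.73), which helps to remove RNA from DNA. ASF1B had levels of 4.23 (NC1) and 3.79 (miR-891b) in HCT116 and of 2.91 (NC1) and 0.72 (miR-891b) in A549, again lowest on the last array. Its paralog ASF1A, named after its values were seen, was the gene that was higher in A549, by 1.17, with levels of -0.82, -0.55, -1.74 and -0.57. In all, 32 of the 36 had a negative A549 change, as had 11863 of all 21336 measured genes. A negative HCT116 change was found for 11 of the 36 and for 10594 of all 19105 measured genes.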

How the data were processed

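Total RNA was labelled with Cy3 and hybridised to 1-colour Agilent arrays. Per the file headers, spots were quantified with Agilent Feature Extraction 11.5.1.1, which corrected the signals for spatial and multiplicative trends, and probe coordinates are on hg19. Annotation on hg19 was not used here. The deposited intensity values are linear and were not scaled across arrays. A second deposited table holds the authors' log2 values; how it was made is not stated, and it differed from the log2 processed signal minus each array's 75th percentile by a median of at most 0.0069, and was used as an alternative.

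Spots with outlier marks were left out, log2 signals were averaged per probe and the array's 75th percentile was subtracted. A gene was measured in a line where both of that line's arrays had its probe well above background, and a change of at least 2-fold was called by size. Areas of stray signal were those where, of the spots up to 10 rows and 10 columns away that were dim elsewhere, at least 10% passed the background limit, taken as the median over the spots of a probe. The additive model (limma 3.58.1 in R 4.3.3, cell line as a term) used genes above background on at least 2 arrays. The model and the calling step were also run on simulated data, and no outcome of that run is given here. That run is therefore no evidence that the model suits these data, where the changes differed between the lines. Python 3.11.15, numpy 2.4.6 and pandas 2.3.3 did the rest. The members, roles and lists were chosen with earlier results of these data known. All 53 genes were named, and of the 36 other genes the 6 with the largest A549 change, plus ASF1A, chosen after its values were seen. A planned search for a protein motif was not run, as protein sequences were not used here.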

Additional observations from a re-analysis of the deposited data

Results flagged for a closer look

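For 15 of the 53 genes the change lay on opposite sides of 0 in the lines, positive in HCT116 and negative in A549, each by more than 2 median SDs of repeated spots (0.12 in HCT116 and 0.14 in A549). That is 28.3% of the 53 genes, and 10.4% of the 18064 genes measured in both lines met the same rule in this direction. The limit rests on repeated spots of an array and leaves out cultures and labelling. Each line had 1 array per group, so these differences were not tested, and the HCT116 changes were small, from 0.13 (GINS3 and FEN1) to 0.50 (CLSPN). The A549 change minus the HCT116 change was -2.49 for CLSPN, -1.95 for POLE2, -1.77 for ORC1, -1.61 for GINS3, -1.60 for PCNA and -1.53 for MCM8. It was -1.52 for FEN1, -1.49 for DBF4, -1.48 for POLA2, -1.45 for ORC6 and -1.36 for RFC4. The remaining values were -1.22 for GMNN, -1.02 for POLD3, -0.65 for RPA2 and -0.46 for POLE3. The POLA2 and POLE3 spots were in stray-signal areas of the HCT116 array with miR-891b, where 22.9% and 15.5% of nearby dim spots were bright, and the part of that signal in their values was not tested.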

How the results depend on the processing

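The count of 41 lowered genes in A549 was 24 with normexp and quantile normalization, where the median change was -0.96, and 35 of 46 genes, with a median of -1.33, without probes in areas of stray signal. In the other settings it was 40 or 41, and 46 at 1.5-fold. In HCT116 the count was 0 in every setting at 2-fold and 1 at 1.5-fold. The median NC1 difference between the lines was -0.30 with normexp and quantile normalization, -0.34 with quantile normalization alone, -0.35 with median scaling and -0.35 with the mean over probes. In A549 24 genes were at least 2-fold lower in each setting that held them (MCM6 and RFC5 were not in the one without stray signal), and the sign of the change turned for ORC2, ORC3 and POLE3 in A549 and for 6 genes in HCT116. The additive model called 0 of the 53 genes both without a filter on dim probes, where it called 6 of 43310 genes, and after quantile normalization. The share of higher genes among all HCT116 calls was 57.9%, 69.2% with normexp and quantile normalization, 64.3% with median scaling, 50% with quantile normalization alone and 49.1% without stray-signal probes. Leaving out an array was not run, since each group had 1 array. The labels give no replicate numbers, and the additive model, with cell line as a term, sets each miR-891b array against the NC1 array of its own line. All 53 genes were well above background, but the normexp setting, with its offset of 50, gave smaller changes for the dimmest. The 6 genes lowest on A549 miR-891b were CDC6, DSCC1, CLSPN, POLE, ORC1 and MCM10. Their A549 changes were -0.56, -1.42, -0.65, -0.39, -0.49 and -0.96 with normexp and quantile normalization. In the main setting they were -2.23, -3.34, -1.98, -1.18, -1.49 and -2.02. In every other setting compared these genes stayed at least 2-fold lower in A549.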
